A study of Mus musculus with 39 samples.

Results

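The mast cell genes described here are Cpa3, Mcpt4, Cma1, Tpsb2, Kit, Fcer1a, Ms4a2 and Hdc, 8 of the 29411 gene names on the array. Their selection rule names genes and uses no measured value. The array carries 12 probes for them out of 40628 probes in all, and each gene is given by its brightest probe, with the other probes of Mcpt4, Cma1 and Kit used as a check. RNA of epididymal adipose tissue of C57BL/6J mice was measured on 39 one-colour arrays, 1 array per diet and time point. The low fat control diet (LFC), with fat giving 10% of calories, had 11 arrays, at days 1, 6, 10 and 14 and weeks 0, 3, 6, 9, 12, 15 and 18. The diet rich in fat and sucrose (HFC), with fat giving 60% of calories, had 10 arrays, the earliest at day 6. KAL-1, an ethno-botanical formulation, was given with that diet at 5, 20 and 75 µg (HF5, HF20 and HF75), and each dose had 6 arrays, at weeks 3 to 18. The mice were weaned at the age of 3 to 4 weeks, and the labels name no allele or agent beyond strain, diet and KAL-1. By the labels, animals of each group were killed every 3 weeks, but they do not say whether an array holds RNA of 1 animal or of several, so the replicates of a diet are its time points, and p-values measure the spread between these arrays only.

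Mast cells are long-lived cells of the immune system that settle in connective tissue, often along vessels, and adipose tissue holds them in its stroma. They store granules of proteases, histamine and serotonin bound to the proteoglycan serglycin, and release them when IgE on the high affinity IgE receptor is crosslinked. Their growth and survival depend on stem cell factor, the ligand of the receptor KIT. Among the members, Cpa3 (carboxypeptidase A3), Mcpt4 and Cma1 (chymases) and Tpsb2 (a tryptase) encode granule proteases of connective tissue mast cells. Fcer1a and Ms4a2 encode the alpha and beta chains of the IgE receptor, Kit the stem cell factor receptor, and Hdc histidine decarboxylase, which makes histamine.

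The probe sequences say what was measured for each gene, and the first 30 of the 60 bases of each brightest probe are given 5′ to 3′ with the chromosome that the deposited table lists for it. The array annotation is on mouse build mm9.
Cpa3, chromosome 3: gccaagtatatcctcaagaatacttcctaa
Mcpt4, chromosome 14: tgaaagatgaattctgtgatgatggactgt
Cma1, chromosome 14: ataagatcttgagggagaattaactctgga
Tpsb2, chromosome 17: cggaagtaccacactggcctctacacggga
Kit, chromosome 5: cacgttacatgtgggttttttctgatatgt
Fcer1a, chromosome 1: attggctgctccttcagacatctgctgaca
Ms4a2, chromosome 19: gccactcttttagttatgctgtatctgatc
Hdc, chromosome 2: ttgatcataacctcacagggtcttcgtgat
The accessions of all 8 genes matched the same symbol in RefSeq's table for GRCm38.p6. Probes of different members shared no run longer than 8 bases. Of all other probes on the array, 1 shared a run of 20 bases or more with a member's probe, the probe of the pseudogene Mcpt-ps1, with a run of 24 bases of the brightest Mcpt4 probe. Of the 3 Kit probes 2 have the same 60 bases, so they are repeats of 1 measurement.

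Cpa3, Mcpt4 and Cma1 had levels that moved together over the arrays, and the 250 bases before the annotated start of each are therefore shown from RefSeq on GRCm38.p6. Capitals mark GATAA, a motif of GATA factors, searched on both strands (as TTATC on the other strand).
Cpa3, chr3:20242182-20242431, minus strand: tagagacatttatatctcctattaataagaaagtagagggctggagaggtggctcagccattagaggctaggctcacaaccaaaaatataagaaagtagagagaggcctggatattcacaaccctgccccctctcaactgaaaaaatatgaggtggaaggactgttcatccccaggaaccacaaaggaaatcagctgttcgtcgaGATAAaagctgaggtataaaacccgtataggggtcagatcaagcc
Mcpt4, chr14:56062311-56062560, minus strand: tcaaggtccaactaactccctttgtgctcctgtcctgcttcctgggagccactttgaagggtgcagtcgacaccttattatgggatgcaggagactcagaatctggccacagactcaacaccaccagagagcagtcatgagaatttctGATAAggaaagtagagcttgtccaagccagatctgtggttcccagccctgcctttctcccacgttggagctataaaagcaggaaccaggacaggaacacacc
Cma1, chr14:55944676-55944925, minus strand: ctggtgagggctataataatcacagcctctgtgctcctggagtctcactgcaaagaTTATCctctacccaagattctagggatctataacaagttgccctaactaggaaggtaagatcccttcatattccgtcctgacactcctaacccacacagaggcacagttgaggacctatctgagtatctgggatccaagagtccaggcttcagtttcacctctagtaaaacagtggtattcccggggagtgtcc
Of the 7 members with an entry in the promoter table, 5 hold GATAA in this window (these 3, Fcer1a and Ms4a2), and 22.6% of 32851 promoters of the same length do. Kit and Hdc had no match. The E-box CACATG was found in 1 member, Fcer1a, against 12.3% of all promoters, and CACGTG in 0 members against 6.02%. Tpsb2 is not in the table. A match is a description of the letters and not of a bound site.

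All values below are log2 of the processed signal minus the 75th percentile of the array, so 0 is the level of a bright probe and 1 unit is a 2-fold step. A value is comparable between arrays for 1 probe, and not between probes. The scanner software marks each spot as well above background or not, and the brightest probes of Mcpt4, Cma1, Kit and Hdc were so marked on 39 of 39 arrays, Tpsb2 on 38, Fcer1a on 37, Cpa3 on 36 and Ms4a2 on 4. No probe of a member was saturated. The arrays not so marked were HF5 at weeks 3 and 9 and HF20 at week 3 for Cpa3, HF5 at weeks 6 and 9 for Fcer1a, and HF5 at week 9 for Tpsb2. In whole tissue, fewer mast cells and less RNA per mast cell cannot be told apart.

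Of the 39 arrays, LFC week 3 and HFC week 12 stood apart. Spots marked as outliers numbered 16431 on LFC week 3 and 10531 on HFC week 12 against 21 to 387 on the other 37 arrays, and the share of spots well above background was 97.1% and 94.5% against 53.7% to 79.6%. Outlier spots were set to missing, which leaves no Cma1, Tpsb2 or Ms4a2 value on LFC week 3 and no Tpsb2 value on HFC week 12. Scan date ran with time point, since the arrays of days 1 to 14 have later scan dates than those of weeks 0 to 18. The tissue label was checked against its markers, and all 8 adipocyte genes tested (Adipoq, Plin1 and Lep among them) were well above background on 39 of 39 arrays. At week 6, 4 of 5 arrays (LFC, HFC, HF5 and HF75) were low in the list of visceral depot and mesothelium genes (mean of −3.79 to −5.08 after centring each gene, against 0.31 on HF20), with summed level 0.223 to 1.15 against 8.57, and high in the subcutaneous depot list (1.76 to 2.18 against −1.25). For Mcpt4, late against early is therefore also given without the week 6 arrays and the 2 that stand apart.

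Cpa3, the carboxypeptidase that trims peptides in the granule, had the widest range of the members that were detected on most arrays. On LFC it was −3.36, −3.06, −4.21, −5.23 and −3.20 from day 1 to week 0, and −1.70, −1.08, −3.61, −1.10, −2.61 and −2.84 from week 3 to week 18. On HFC it was −3.47, −3.19, −4.29 and −2.53 from day 6 to week 0, and −2.59, −2.72, −3.06, −4.98, −2.52 and −3.99 from week 3 on. The LFC arrays of weeks 3, 6 and 12 were high and the HFC array of week 12, which stands apart, was the lowest HFC array. At weeks 3 to 18 in order, Cpa3 was −5.88, −3.91, −3.96, −4.29, −2.04 and −3.88 on HF5. It was −6.88, −1.32, −1.95, −2.85, −2.39 and −1.37 on HF20, and −5.72, −0.17, −3.63, −1.02, −4.73 and −2.80 on HF75. The 3 KAL-1 arrays of week 3 were thus the 3 lowest of all 39, and the HF75 array of week 6 was the highest.

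Mcpt4, the chymase of connective tissue mast cells, was −2.11, −1.56, −2.80, −3.92 and −2.92 on LFC from day 1 to week 0 and −2.10, 0.60, −1.52, −0.10, −0.61 and −1.63 from week 3 to week 18. On HFC it was −2.62, −2.75, −2.47 and −1.89 from day 6 to week 0 and −1.34, −0.43, −1.51, −3.15, −1.10 and −0.99 from week 3 on. With the exception of the week 12 array that stands apart, each late HFC array was above each early one. On the KAL-1 arrays Mcpt4 ran from −2.24 to −0.49 on HF5, from −4.00 to 0.26 on HF20 and from −3.51 to 1.23 on HF75, and the lowest value of each dose was that of week 3. The other Mcpt4 probe followed it over the 37 arrays that do not stand apart (r = 0.96).

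Cma1, the second chymase, was highest on HF75 week 6 at 1.78, LFC week 6 at 1.13 and LFC week 12 at 0.91. It was lowest on HF20 week 3 at −3.04, LFC day 14 at −2.70 and HF75 week 15 at −2.37. Its group medians over all time points were −0.80 on LFC, −0.67 on HFC, −1.28 on HF5, −0.06 on HF20 and −0.96 on HF75. Tpsb2, the tryptase, was highest on HF20 week 18 at −1.97, HF75 week 6 at −2.38 and LFC week 6 at −2.84, and lowest on HF75 week 15 at −5.67 and HF75 week 3 at −5.55. The HF75 array of week 6 was thus the highest or second highest array for each of the 4 proteases.

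Kit, the receptor that mast cells share with melanocytes, haematopoietic progenitors and interstitial cells of Cajal, ran on a narrower scale, from −0.57 on HF20 week 12 to 2.03 on HFC week 9. At week 6 it was 0.10 on LFC, −0.17 on HFC, 0.52 on HF5, −0.31 on HF20 and −0.52 on HF75, and week 6 had the lowest mean over the diets of all weeks (−0.08 ± 0.40, SD, n = 5). Hdc ran from −1.38 on HF20 week 12 to 3.58 on HF5 week 6. Its median over the 39 arrays was 1.70. Its 4 highest arrays were HF5, HF75, HFC and LFC at week 6, at 3.58, 3.09, 3.07 and 2.82. These are the 4 arrays that were low in visceral depot genes and high in the subcutaneous depot list. The part of that difference in the Hdc values was not tested. The arrays below 0 were LFC day 1 at −0.02, LFC week 3 at −0.50, HFC week 3 at −0.65 and HF20 at weeks 6, 12 and 18 at −0.31, −1.38 and −0.61. The HF20 array of week 18 was also among the highest arrays for the proteases.

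Fcer1a, the chain of the IgE receptor that binds the antibody, was −5.92, −4.12, −3.43, −4.63 and −4.62 on LFC from day 1 to week 0 and −2.74, −4.13, −5.12, −3.04, −3.86 and −3.31 from week 3 on. On HFC it was −5.16, −5.54, −6.31 and −5.53 from day 6 to week 0 and −5.13, −4.47, −4.75, −4.32, −2.84 and −3.92 from week 3 on. On HFC all 6 late arrays were above all 4 early arrays, while the LFC groups overlapped. Among the 34774 probes tested for change with time, 0.966% had late HFC arrays all above early ones, and 2.37% did so without the week 12 array, as Mcpt4 and Cma1 then did too. Ms4a2, the beta chain, was well above background on LFC weeks 3 and 18, HFC week 12 and HF20 week 9 only, with values of −2.84 on LFC week 18, −3.80 on HFC week 12 and −5.85 on HF20 week 9. Its other values, from −9.44 to −4.27, were not well above background, and it was not tested.

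**Figure D1:**
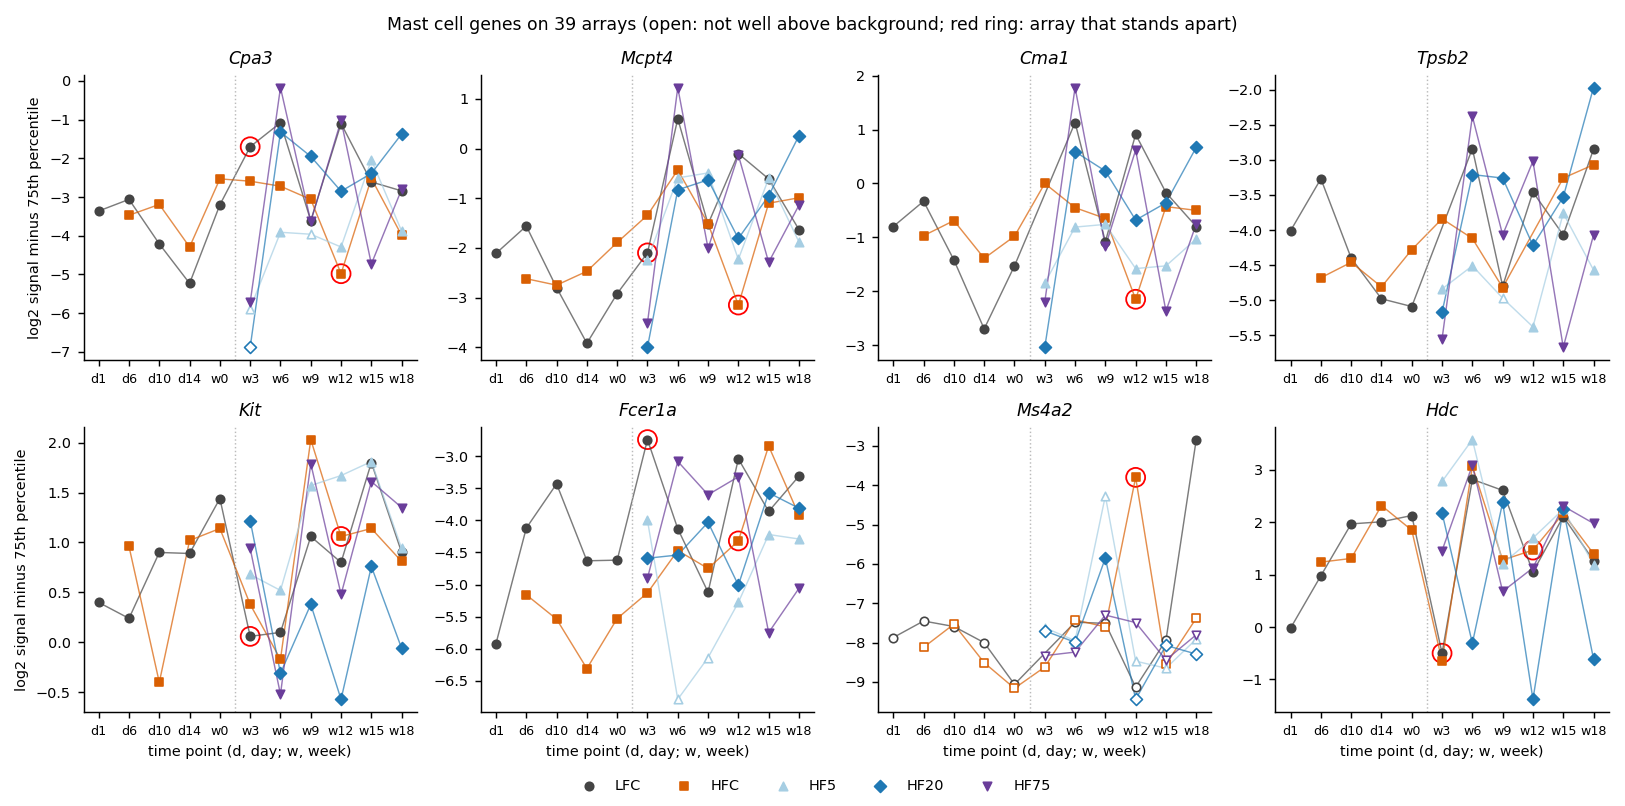
Level of the brightest probe of each mast cell gene (log2 signal minus the 75th percentile of the array, y axis) at each time point (x axis, days then weeks, not to scale), with 1 point per array, colour and shape by diet. Open points were not well above background, red rings mark the 2 arrays that stand apart, and the dotted line parts early from late arrays. Cpa3 was lowest on the 3 KAL-1 arrays of week 3, at −6.88 to −5.72.

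Over the 30 arrays of weeks 3 to 18 the diets ranked by mean Cpa3 level as LFC (−2.16 ± 1.03, SD, n = 6), HF20 (−2.79 ± 2.09, n = 6), HF75 (−3.01 ± 2.13, n = 6), HFC (−3.31 ± 0.98, n = 6) and HF5 (−3.99 ± 1.22, n = 6). For Mcpt4 the order was LFC (−0.90 ± 1.03), HF75 (−1.31 ± 1.68), HF20 (−1.33 ± 1.47), HF5 (−1.34 ± 0.86) and HFC (−1.42 ± 0.93). For Fcer1a it was LFC (−3.70 ± 0.87), HFC (−4.24 ± 0.80), HF20 (−4.26 ± 0.54), HF75 (−4.28 ± 1.09) and HF5 (−5.12 ± 1.15). No neighbours in these orders differed by more than the SD of either. Of the spread of Cpa3 over these arrays, 26.4% lay between time points and 14.9% between diets. For Mcpt4 these shares were 45.6% and 2.61%, for Kit 49.0% and 19.5%, and for Fcer1a 7.31% and 22.9%. Labels unrelated to the values would also give shares above nil with this few arrays. The shares were not tested and are a description only.

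To ask whether the high fat diet changed these genes, HFC was compared with LFC at the 10 time points that both have. Day 14 and week 0 are counted as 2 of these. A paper on the liver data of this experiment treats them as the same time. Fcer1a was lower on HFC by the largest amount, at −0.90 (SE 0.32, 95% confidence interval −1.59 to −0.21, lower at 8 of 10 time points). Its unadjusted p in limma's moderated test was 0.0152 and its adjusted p 0.998, so it did not pass the threshold of 0.05. Cpa3 differed by −0.47 (SE 0.43, interval −1.41 to 0.47) and was higher on HFC at 5 of 10 time points. The differences were −0.17 (SE 0.38) for Mcpt4, −0.25 (SE 0.41) for Cma1 and −0.15 (SE 0.29) for Tpsb2. Kit and Hdc differed by −0.02 (SE 0.22) and −0.10 (SE 0.20). Of the 7 members tested 0 passed, and 0 of all 29700 probes passed (0%). At an unadjusted p under 0.05, 1 member and 3.05% of all probes were found. The signs of the 3 carboxypeptidase and chymase differences rest on the 2 arrays that stand apart: without them Cpa3, Mcpt4 and Cma1 differed by 0.01, 0.08 and 0.11, and Fcer1a by −0.66 with an adjusted p of 0.715.

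Markers of other cells differed in the same comparison. Of the B cell and plasma cell list 8 of 8 genes were lower on HFC by any amount (median −0.92, 4 at an unadjusted p under 0.05), and its summed level ran from 1.21 to 55.3 on LFC and from 1.59 to 18.3 on HFC. The neutrophil and eosinophil list had a median of −0.79 (2 of 7 at that p), with summed level 1.64 to 64.8 and 4.11 to 25.5. The epididymis list was lower in 8 of 8 genes (median −2.01, 3 at that p), with 0.138 to 117 and 0.0634 to 91.1. Higher on HFC by any amount were 6 of 7 genes of the visceral depot and mesothelium list (median 0.86, 4 at that p), with 1.15 to 19.8 and 0.819 to 24.9, and 9 of 10 macrophage genes (median 0.59, 2 at that p). Of all probes tested 53.4% were higher on HFC by any amount. No gene of these lists passed the adjusted threshold, and their part in the Fcer1a difference was not tested.

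The median difference of the 7 members was −0.17, and that of all probes tested was 0.03. Week 12 had the largest difference of the 10 time points for Cpa3, Mcpt4 and Cma1, with Cpa3 at −4.98 on HFC and −1.10 on LFC and Mcpt4 at −3.15 and −0.10, and HFC week 12 is an array that stands apart. At week 0 and day 14 HFC was above LFC for these genes, with Mcpt4 at −1.89 against −2.92 and at −2.47 against −3.92. The direction of the difference thus varied between time points.

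The doses of KAL-1 were compared with HFC and with each other over weeks 3 to 18, in 1 fit of all 30 arrays with time point as a block. No member passed in any of the contrasts, and 0% of all probes did. For HF5 minus HFC the differences ran from −0.88 (SE 0.54) for Fcer1a to 0.66 (SE 0.63) for Hdc. The smallest adjusted p of a member was 0.955 by limma. Fcer1a was not well above background on HF5 at weeks 6 and 9, and its difference was 0.04 with normexp background correction. HF5 week 9 was the dimmest array, with a 75th percentile of signal of 120 and 53.7% of spots well above background. Tpsb2 was lower on HF5 at 5 of 5 time points with a value, by −0.85 (SE 0.51, interval −1.91 to 0.21), and its value was −0.14 with normexp background correction. For HF20 minus HFC, Kit differed by −0.64 (SE 0.30, interval −1.26 to −0.02, unadjusted p = 0.0451, adjusted p = 0.772 by limma) and was lower at 5 of 6 time points. Cpa3 and Cma1 were higher on HF20 at 5 of 6 time points, by 0.52 (SE 0.79) and 0.26 (SE 0.56) on average, but by 0.02 and −0.12 without the 2 arrays that stand apart. At week 6 HFC was low in visceral depot genes and HF20 was not. In this contrast the subcutaneous depot list had a median of −1.87. The medians were 1.47 for epididymis (9 of 10 genes higher), 0.96 for adipocyte (7 of 8) and 0.60 for macrophage (10 of 10). Of all probes 44.2% were higher. The part of these lists in the Kit, Hdc, Cpa3 and Cma1 differences was not tested. For HF75 minus HFC the 7 differences lay between −0.31 and 0.32. At an unadjusted p under 0.05 the members found numbered 0 for HF5, 1 for HF20 and 0 for HF75, against 3.44%, 5.05% and 1.54% of all 32088 probes.

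For HF75 minus HF5 the largest differences were 0.98 for Cpa3 (SE 0.79, interval −0.66 to 2.62) and 0.83 for Fcer1a (SE 0.54, interval −0.28 to 1.95), which were 0.28 and −0.25 with normexp. For Cpa3 the intervals of HF20 minus HFC (−1.12 to 2.15) and HF75 minus HFC (−1.34 to 1.94) hold differences of more than 2-fold in both directions. The mean of the 3 doses differed from HFC by −0.32 to 0.09. When the mean of all 4 high fat groups was set against LFC, Cpa3 differed by −1.12 (SE 0.63) and Fcer1a by −0.78 (SE 0.43), with adjusted p of 0.763 for both by limma, and both were lower at 5 of 6 weeks. Without the 2 arrays that stand apart these values were −0.48 and −0.53, and with quantile scaling −0.51 and −0.02. In the same contrast the B cell and plasma cell list was lower in 8 of 8 genes (median −1.04) and the neutrophil and eosinophil list had a median of −1.29. Of all probes 53.3% were higher by any amount. The part of these lists was not tested. No probe of the array passed in that contrast (0%), and 6.05% had an unadjusted p under 0.05, against 0 of 7 members. Over weeks 3 to 18 the slopes of the members were −0.015 to 0.054 per week, and none passed.

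At week 3 the 4 proteases were lower on every KAL-1 array than on the untreated high fat array. Cpa3 was −5.88, −6.88 and −5.72 on HF5, HF20 and HF75 against −2.59 on HFC and −1.70 on LFC, where the HF5 and HF20 spots were not well above background. Mcpt4 was −2.24, −4.00 and −3.51 against −1.34 on HFC, Cma1 −1.85, −3.04 and −2.20, and Tpsb2 −4.84, −5.17 and −5.55 against −3.84. Of all probes, 35.9% were likewise lower on each of the 3 doses than on HFC at this week. For 13 probes of 32088 (0.0405%) the 3 KAL-1 arrays of week 3 were below all other arrays, and Cpa3 was 1 of them. On these arrays the summed level of the macrophage list was 18.4 to 19.3 against 6.74 to 112 on the other 36, and that of the B cell and plasma cell list 1.41 to 7.77 against 1.21 to 59.3; their part in the Cpa3 values was not tested. With 1 array per dose at week 3 there is no test of this difference, which was chosen for description after the values were seen.

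To ask whether these genes changed over the course of the study, arrays of weeks 3 to 18 (late) were compared with those of day 1 to week 0 (early). On LFC the mean of Mcpt4 was −0.90 ± 1.03 (SD, n = 6) at weeks 3 to 18 and −2.66 ± 0.89 (n = 5) from day 1 to week 0, a difference of 1.77 (SE 0.52, adjusted p = 0.205 by limma). On HFC it was −1.42 ± 0.93 (n = 6) against −2.43 ± 0.38 (n = 4), a difference of 1.01 (SE 0.56, adjusted p = 0.486). Over both diets Mcpt4 differed by 1.39 (SE 0.38, interval 0.60 to 2.18), with an adjusted p of 0.0595, above the threshold. Fcer1a differed by 1.12 (SE 0.35, interval 0.39 to 1.85, adjusted p = 0.0969). Cpa3 differed by 0.86 (SE 0.40), Cma1 by 0.83 (SE 0.36) and Tpsb2 by 0.74 (SE 0.32), with adjusted p of 0.254, 0.215 and 0.226. Kit and Hdc differed by 0.10 (SE 0.30) and −0.04 (SE 0.45). Thus 0 of 7 members passed, against 2.23% of 34774 probes (0.618% on LFC alone and 0% on HFC alone), while 5 of 7 had an unadjusted p under 0.05, against 19.1% of all probes. On LFC alone 3 of 7 did (Cpa3, Mcpt4 and Cma1) against 8.06%, and on HFC alone 1 of 7 (Fcer1a) against 11.1%.

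The median of the 7 members was 0.83 and that of all probes 0.03. Without the 2 arrays that stand apart, Mcpt4 differed by 1.68 over both diets (adjusted p = 0.0087 by limma) and by 2.01 on LFC (adjusted p = 0.0401), and passed in both. Without these and the week 6 arrays it differed by 1.45 (adjusted p = 0.0239), a choice made after the data were seen. With time point as a random block its adjusted p was 0.0954. Days 1 to 14 and the late weeks belong to different scan periods. Against week 0 alone, which was scanned in the period of the late weeks, Mcpt4 was higher on all 6 late LFC arrays (by 2.02 on average, from −2.92) and on 5 of 6 late HFC arrays (by 0.48, from −1.89). The early side of this comparison is 1 array per diet, so these values are given as a description. For Cpa3 the same comparison gave 1.04 on LFC and −0.78 on HFC, where 1 of 6 late arrays was higher, and for Fcer1a 0.93 and 1.29.

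The late arrays also differed in markers of other cells. The B cell and plasma cell list ran from −2.07 to 0.17 on early LFC arrays and from 0.16 to 2.39 on late ones (centred means), with summed level 1.21 to 5.69 against 3.07 to 55.3. On HFC it ran from −1.17 to −0.67 and from −1.60 to 1.66. Its gene Pou2af1, a coactivator of B cells, was 2.35 higher on the late arrays (SE 0.45, adjusted p = 0.00789). S100a9 of the neutrophil and eosinophil list was 1.82 higher (SE 0.46, adjusted p = 0.042 by limma). All 8 cell cycle genes were lower, and 7 of them passed the threshold, where 2.23% of all probes did. Cdk1 differed by −2.80 (SE 0.35, adjusted p = 0.00131 by limma). The part of these in the mast cell genes was not tested. The test of a difference between the diets in the change with time gave an adjusted p of 1 for all 7 members, as it did for every probe tested, so it does not show that the changes were alike. The largest such difference was −1.59 for Cpa3 (SE 0.81, interval −3.27 to 0.09, unadjusted p = 0.0619 in limma's moderated test), which was 1.65 (SE 0.55) higher late on LFC and 0.06 (SE 0.59) on HFC.

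**Figure D2:**
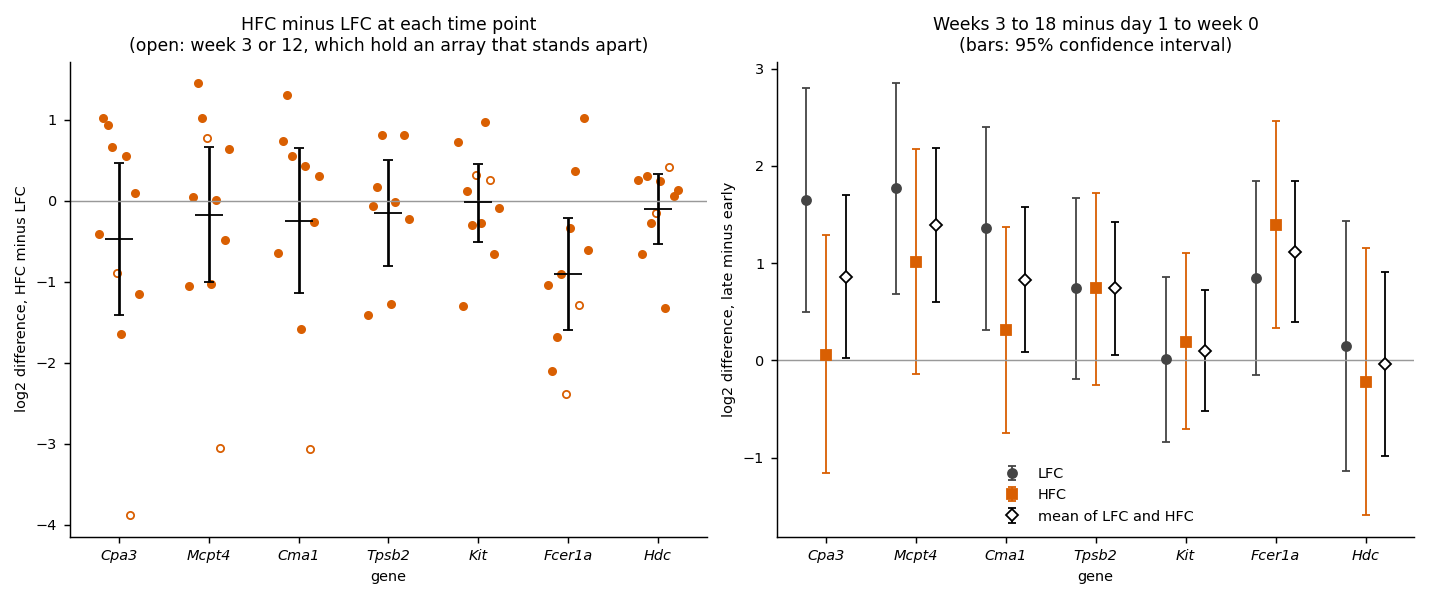
Left, HFC minus LFC at each time point (points, log2) for the 7 members tested, with the fitted mean and its 95% confidence interval in black; open points are weeks 3 and 12, each of which holds an array that stands apart. Right, weeks 3 to 18 minus day 1 to week 0 on LFC, on HFC and as their mean, with 95% confidence intervals; Mcpt4 had the largest mean difference, 1.39, and Kit and Hdc lay at 0.10 and −0.04.

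Whether the members vary as 1 group was described by their correlation over the 37 arrays that do not stand apart. The arrays are 1 per diet and time point, so time points, scan dates and shared tissue differences enter these values, and they are given with no test. The 4 proteases moved together: r between them was 0.74 to 0.91, with the largest value for Cpa3 and Cma1. With each time point centred on its mean the range was 0.73 to 0.91, and over weeks 3 to 18 alone it was 0.75 to 0.92. Over the 19 LFC and HFC arrays alone it was wider, 0.56 to 0.90, with the lowest value for Cpa3 and Tpsb2 (0.37 without the 2 arrays farthest from the median). Fcer1a followed them less, at 0.33 to 0.61, with the highest value for Tpsb2. Kit ran against them, at −0.53 to −0.31, but only at −0.33 to −0.13 over the LFC and HFC arrays. Its other probe sequence ran against them too, while the Kit probes correlated with each other at 0.82 to 0.99. Hdc was at −0.21 to 0.06, and Ms4a2, mostly below detection, at −0.05 to 0.17. The high and low arrays of the proteases were thus largely shared, and Kit and Hdc did not follow them over the arrays. Some extreme arrays were still the same. HF75 and LFC at week 6, highest for the mean of the 4 proteases, were also among the 4 highest for Hdc (3.09 and 2.82).

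**Figure D3:**
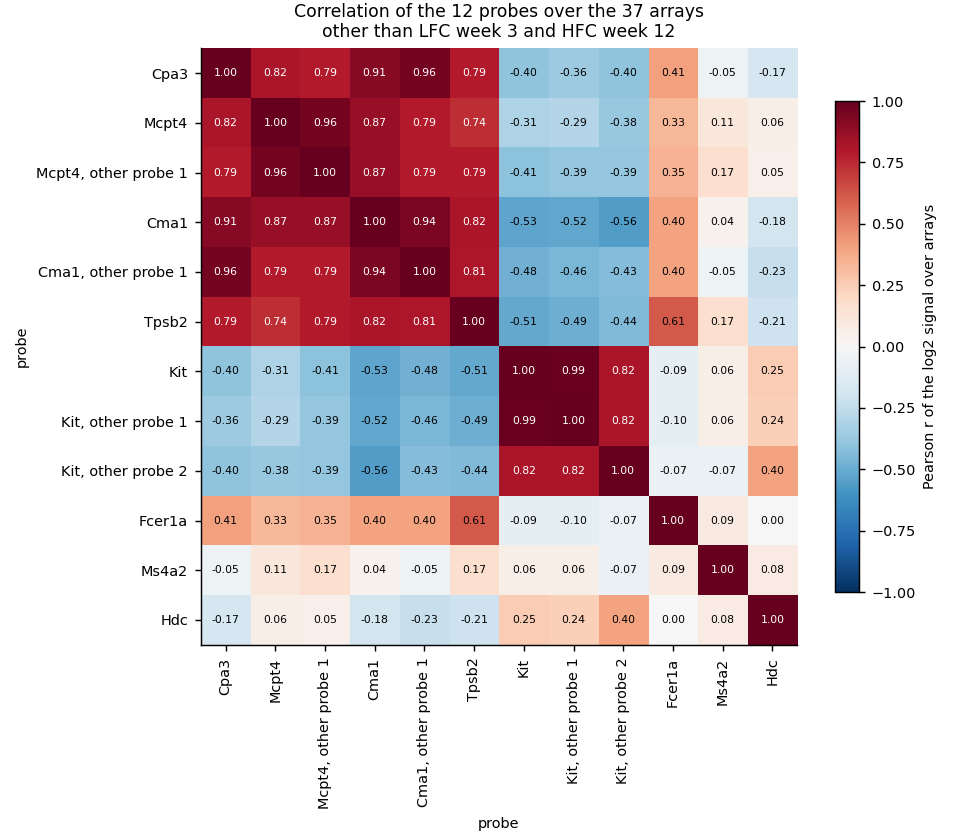
Pearson r between the 12 probes of the mast cell genes over 37 arrays, each cell a pair of probes and the colour its r from −1 to 1. The probes of Cpa3, Mcpt4, Cma1 and Tpsb2 form a block of high r, with 0.74 to 0.91 between the brightest probes, and the Kit probes form a block of their own.

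The mean of the 4 proteases, each centred on its mean over the 37 arrays, ranked the arrays as HF75 week 6 (2.49), LFC week 6 (1.82), HF20 week 18 (1.77), HF75 week 12 (1.49) and LFC week 12 (1.43) at the upper end. The lower end was HF20 week 3 (−2.40), HF75 week 3 (−1.87) and LFC day 14 (−1.83). Both the highest and the lowest arrays thus came from several diets. Of the lists of other cells, the B cell and plasma cell list was the most alike over the 37 arrays (r = 0.58), followed by the macrophage list (0.46), the neutrophil and eosinophil and the skeletal muscle lists (0.41 each) and the T cell list (0.40). The endothelium and epididymis lists ran the other way (−0.35 and −0.37), and the adipocyte list was at −0.09. The depot lists, which set most week 6 arrays apart, were at 0.08 (subcutaneous) and −0.15 (visceral).

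The gene names whose pattern was most like the mean of the 7 detected members were sought among 20246 names that were well above background on at least 20 arrays. The 10 with the highest r over the 37 arrays included Tph1 (r = 0.78), which encodes the tryptophan hydroxylase that mast cells use to make serotonin, and Gm4015 (0.76), described on the array as similar to a chymase precursor. The other 8 were probes described as immunoglobulin or antibody chains or similar to them, LOC676175 first with 0.79. When Cpa3 alone was the pattern, a choice made after these values were seen, Tph1 (0.78) and Gm4015 (0.77) came first, and Tpsab1, the other mouse tryptase of this type, was the seventh with 0.69. With Fcer1a as the pattern, Olfr978 (0.73) and Klk1 (0.70) came first, and 5 of the 10 names were described as immunoglobulin or antibody chains. With Kit as the pattern the 10 names were predicted genes and pseudogene-like loci at 0.84 to 0.86, and with Hdc they included Foxs1 and Slc12a7 at 0.85. The probes of Gm4015, Tpsab1 and Tph1 shared at most 7, 8 and 8 bases in a row with a member's probe.

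**Figure D4:**
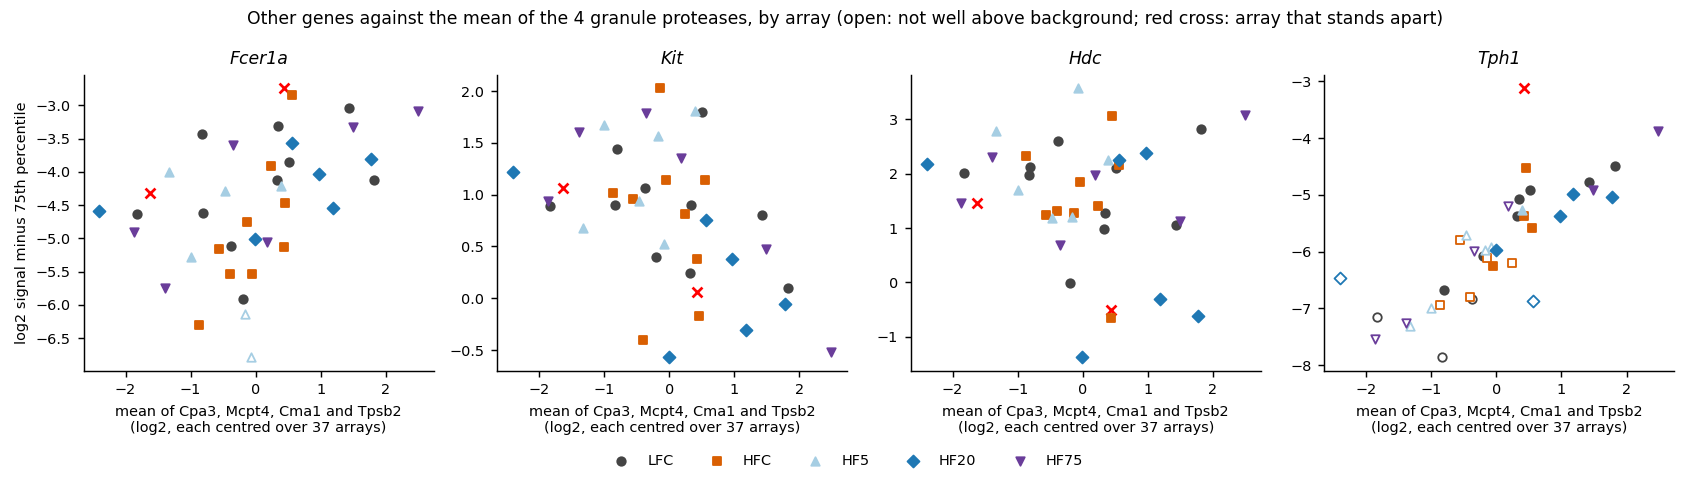
Level of Fcer1a, Kit, Hdc and Tph1 (log2 signal minus the 75th percentile, y axis) against the mean of the 4 proteases on the same array (x axis), colour and shape by diet, open points not well above background, red crosses the 2 arrays that stand apart. Over the other 37 arrays Tph1 rises with the proteases (r = 0.83), Fcer1a does so less, and Hdc does not.

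The other genes of the mast cell pathway were taken from 5 lists, of granule proteases and proteoglycan, receptor signalling, growth factors and transcription factors, amine and lipid mediators, and basophil genes, 61 genes of which 60 are on the array. Mcpt1 and Mcpt2, proteases of mucosal mast cells, were well above background on 2 of 39 arrays each and Mcpt9 on 1. Mcpt8, a basophil protease, was so on 6 arrays, Tpsab1 on 20, and Srgn, which encodes serglycin, on 39. Tph1 was well above background on 20 arrays and correlated with the protease mean at 0.83 over 37 arrays and at 0.85 over the 18 of these on which it was detected. For Tpsab1 the values were 0.67 and 0.66 over 18 arrays. Il1rl1, the receptor of interleukin 33, was at 0.42 and Ctsg, a granule protease shared with neutrophils, at 0.32. Slc18a2, the granule transporter of amines, was at 0.05, Kitl, the ligand of KIT, at −0.26, Gata2 at −0.26 and Srgn at −0.25. With each time point centred on its mean, Kitl was at −0.59, Gata2 at −0.50 and Srgn at −0.59, so these genes ran against the proteases within time points.

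Of these lists 47 genes were tested for HFC against LFC, and 0 passed, with 2 at an unadjusted p under 0.05, against 3.05% of all probes. These were Ctsg, lower on HFC by −1.04 (SE 0.45, p = 0.0434, adjusted p = 0.998 by limma), and Hnmt, which degrades histamine, at 0.99 (SE 0.39, p = 0.0273, adjusted p = 0.998 by limma). For the mean of 4 high fat groups against LFC, 0 of 51 passed and 3 had an unadjusted p under 0.05, against 6.05% of all probes. The smallest p were those of Ddc (−1.49, SE 0.49), Ctsg (−1.99, SE 0.67) and Tph1 (−0.97, SE 0.44), with adjusted p of 0.763 each by limma. The highest Tph1 value of any array was that of LFC week 3 (−3.12), which stands apart, against −5.37 on HFC at that week. Tph1 was well above background on 20 of 39 arrays only. When the 3 doses were averaged and set against HFC, 0 of 51 passed, and Mrgprb1 and Slc18a2 (−0.91, SE 0.48) had the smallest p of their lists. Mrgprb1, of the receptor list, was well above background on 0 of 6 HF5 arrays and on 1 of 6 at each other dose, so no difference is given for it.

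For late against early over both diets, 1 of 53 passed, in the direction of higher late levels, where 2.23% of all probes passed in either direction, so this count is near the share over the whole array. This was Mitf, a transcription factor of mast cells, melanocytes and other cells, with 1.03 (SE 0.25, adjusted p = 0.0368). Its mean was −1.94 ± 0.42 (n = 5) early and −0.94 ± 0.76 (n = 5) late on LFC, and −1.90 ± 0.44 (n = 4) and −0.83 ± 0.39 (n = 6) on HFC. Genes with the smallest p of the other lists did not pass: Tpsg1 (1.20, SE 0.48) and Serpinb1a (0.65, SE 0.30), Lat (1.93, SE 0.62), Hrh1 (2.37, SE 0.68) and Tph1 (1.32, SE 0.40), and Il4 (1.12, SE 0.40) and Cd200r3 (0.78, SE 0.55), with Tal1 (1.46, SE 0.45) of the list of Mitf. Of these, Tpsg1 was well above background on 3 of 5 early LFC and 0 of 4 early HFC arrays, Tph1 on 3 and 1, and Cd200r3 on 2 and 1, so their early levels lie partly below detection. Mrgprb1 also had one of the smallest p of its list, but it was well above background on none of the early arrays, and of the 6 late arrays on which it was, LFC week 3 and HFC week 12 are the ones that stand apart, so no difference is given for it. In all, 32 of the 53 genes were higher late by any amount, as were 51.9% of all probes.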

How the data were processed

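Each of the 39 files holds the spot intensity of 1 one-colour array, background-subtracted by Feature Extraction (10.5.1.1 per the file headers, 9.1 in the submitters' processing notes), as deposited by the authors. A deposited table of log2 differences of each array from the LFC array of its time point, made by the authors in GeneSpring, served as an alternative for diet comparisons. Here log2 of the processed signal minus the 75th percentile of the array was used, with outlier spots missing and spots of a probe averaged. Probes entered a fit when well above background on a minimum number of its arrays. Tests were two-sided with limma 3.58.1 in R 4.3.3, with Benjamini-Hochberg adjustment over all probes tested and a threshold of 0.05. HFC was compared with LFC, and the diets at weeks 3 to 18, with time point as a block. Late against early used 4 groups with no block, and slopes used time point as a random block. The scripts were tested on simulated data. The members and gene lists were chosen with earlier results of these data known. All members are named, and of the other pathway lists each gene that passed or otherwise the 2 with the smallest p. Likeness was ranked by Pearson r over 37 arrays for genes detected on at least 20 arrays. The number of arrays limits the precision. Alternatives were other background corrections, scalings, filters, blocks, array weights, probe means and arrays left out.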

Additional observations from a re-analysis of the deposited data

Results flagged for a closer look

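In groups of 4 to 6 arrays, a single array lay far from the others for 7 of 56 combinations of gene and group, where chance gives about 2.8. Some flags share an array and the proteases move together, so the combinations are not independent. The count is therefore not read as an excess over chance. Cpa3 on HF20 was lowest at week 3 (−6.88, not well above background, the next value being −2.85), and Cma1 on HF20 was lowest on the same array (−3.04, next −0.68). Cma1 on late HFC was lowest at week 12 (−2.15, next −0.65), an array that stands apart in quality. Kit on early HFC was lowest at day 10 (−0.40, next 0.96). Of the late arrays alone, Ms4a2 was highest on LFC at week 18 (−2.84, next −7.48) and on HFC at week 12 (−3.80, next −7.38), and it was highest on HF5 at week 9 (−4.27, next −7.62, not well above background).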

How the results depend on the processing

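Recomputed were 45 differences of single members from 10 of the 13 contrasts, those given one by one above among them, except Hdc for HF20 minus HFC. Of their 975 values, 879 kept their direction and side of the threshold, 15 moved past the threshold and 81 changed sign. Of 849 values of the other 46 differences, 748 kept their direction and 0 passed. No member passed for HFC against LFC or between diets in any alternative run. The slide as a block was not run for HFC against LFC, since arrays of a slide lie inside a time point.

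For HFC minus LFC, quantile scaling turned Mcpt4 (0.10), Kit (0.01) and Hdc (0.06), and median scaling Kit (0.11) and Hdc (0.04). Without the 2 arrays that stand apart (LFC week 3, HFC week 12) Cma1 (0.11), Mcpt4 (0.08) and Cpa3 (0.01) turned, and with array weights Cma1 (0.14), Mcpt4 (0.27), Cpa3 (0.07) and Tpsb2 (0.09). Leaving out each time point gave −0.29 to 0.03 for Tpsb2, −0.13 to 0.12 for Kit, −0.16 to 0.04 for Hdc, −0.44 to 0.11 for Cma1 and −0.35 to 0.15 for Mcpt4. For the 4 high fat groups against LFC, Hdc was 0.01 with normexp, 0.13 with quantile scaling, 0.38 with median scaling and 0.00 with slide as a block, and Mcpt4 was 0.28 with quantile scaling. Kit was −0.14 without the 2 arrays and −0.11 with array weights, and leave-one-out ranges were −0.12 to 0.12 for Kit and −0.43 to 0.20 for Hdc. Cpa3 there ran from −1.43 to −0.22 and Fcer1a from −1.03 to −0.02 over all alternatives, with the smallest sizes for array weights and quantile scaling in that order.

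Between the doses, HF5 minus HFC was −1.30 to −0.14 for Tpsb2, 0.11 to 1.04 for Hdc and −1.28 to 0.04 for Fcer1a, which turned with normexp (0.04). HF20 minus HFC was −0.93 to −0.28 for Kit, 0.02 to 1.48 for Cpa3 and −0.12 to 0.93 for Cma1, which turned without the 2 arrays (−0.12). Hdc was −1.41 to −0.16 there. HF75 minus HFC for Cpa3 turned without the 2 arrays (−0.20), with −0.43 to 0.98 over leave-one-out. HF75 minus HF5 was 0.28 to 1.72 for Cpa3 and −0.25 to 1.31 for Fcer1a, which turned with normexp (−0.25). The highest HF20 values of Cpa3 (1.48) and Cma1 (0.93) were those without week 3. The difference of Cpa3 between the diets in the change with time was −1.93 to −0.94.

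For late minus early on LFC, Kit was −0.14 with normexp, −0.03 with quantile scaling, −0.29 with median scaling, −0.06 with the mean of its probes and −0.66 against week 0 alone. Hdc there was −0.07, −0.15 and −0.57 with quantile scaling, median scaling and week 0 alone. On HFC, Cpa3 was −0.50, −0.19 and −0.78 and Kit −0.06 (median) and −0.27 (week 0) in these settings, and Hdc was 0.32 with array weights. For the mean, Kit was −0.17 (median scaling) and −0.46 (week 0), and Hdc 0.17 without the 2 arrays, 0.30 with array weights and 0.02 with slide as a block. Leave-one-out ranges were −0.19 to 0.18 (Kit, LFC), −0.21 to 0.56 (Hdc, LFC), −0.17 to 0.40 (Kit, HFC), −0.25 to 0.40 (Cpa3, HFC), −0.54 to 0.20 (Hdc, HFC), −0.06 to 0.28 (Kit, mean) and −0.32 to 0.38 (Hdc, mean).

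Mcpt4 passed for the mean in 8 alternatives, among them probes detected on every array (1.39, adjusted p = 0.0404 by limma), without the 2 arrays (1.68), array weights (1.79), the mean of its probes (1.40) and leaving out week 0, 3 or 12, with a leave-one-out range of 1.14 to 1.50. The number of members passing was 4 with array weights, where 6586 of 34774 probes passed, and 1 in the other settings named. Over leave-one-out it was 0 to 1, where 172 to 2502 probes passed. It was 1 without the week 6 and the 2 arrays, an alternative added after the data were seen. On LFC 1 passed without the 2 arrays and 1 with array weights, where 395 of 34774 probes passed. On HFC 2 passed with array weights, where 7903 of 34774 probes did.

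Probes passing on LFC, 215 in the reported fit, were 0 with normexp, 126 with quantile scaling, 137 detected on every array, 114 with outlier spots kept, 395 with array weights, 0 against week 0, 127 with each diet's own spread and 89 to 302 over leave-one-out. For the mean, 776 became 2 with normexp, 465 with outlier spots kept, 6586 with array weights, 1 against week 0 and 172 to 2502 over leave-one-out. On HFC, 0 became 1 with quantile scaling, 7903 with array weights, 1 against week 0 and 0 to 26 over leave-one-out, and the difference between diets gave 1 against week 0. HF75 minus HF5 gave 1 without the 2 arrays and 2 with array weights, the 4 high fat groups against LFC gave 1 with array weights, and the mean of the doses gave 0 to 1 over leave-one-out. Slopes gave 16 with array weights and 12 with slide as a block. The causes were not tested.

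With time point as a replicate block, 0 members passed for late against early, 218 probes passed on LFC, 0 on HFC and 555 for the mean, and Mcpt4 was 1.38 for the mean (adjusted p = 0.0954 by limma). Without the replicate block, 0 members passed for HFC against LFC and 13 probes for the slope.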
